A study of Saccharomyces cerevisiae with 8 samples.

Results

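The stops of reverse transcription along 25S rRNA were described for 25S-preLSUs in which micrococcal nuclease (MNase) was fused to the ribosomal protein rpL5, beside the same particles without MNase. All 3396 nucleotides of 25S rRNA were included, out of 10000 nucleotides in the rDNA table, and 2 of the 8 libraries of the study carry the comparison. Both libraries came from 2 litre cultures of S288c yeast with a TAP tag on Lsg1, a GTPase that binds late cytoplasmic precursors of the large subunit. Strain Y3413 (MNase-HA-rpL5_Lsg1-TAP) carries a chromosomal deletion of RPL5 and a plasmid that expresses MNase-HA-rpL5 from the RPS28 promoter as the only source of the protein. Strain Y3389 (Lsg1-TAP) has its own RPL5 and no MNase. Each is 1 strain with 1 purification and 1 library, so no test between the libraries could be made and no value has an error. The fusion strain thus differs from its control in the nuclease, in the plasmid and in the source of rpL5, and these cannot be told apart from the library. Strains with MNase on rpL27 or rpL35, purified in the same way, are given side by side and are called the rpL27 and rpL35 fusions.

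RpL5, uL18 in the universal nomenclature, binds 5S rRNA and lies with it in the central protuberance of the large subunit. MNase needs calcium, and it cuts RNA preferentially 5' of adenine or uracil in accessible single stranded stretches. When calcium is added to purified particles, nuclease held at the N terminus of rpL5 can cut the rRNA within its reach, and reverse transcriptase later runs off at the new 5' end. The enzyme also stops at the natural 5' end of an rRNA, at bases with a methyl group on the pairing face such as 1-methyladenosine and 3-methyluridine, and at many weaker places, so stops are read against particles without nuclease. Among cDNA fragments that cover a nucleotide, the share that ends on it is called the termination to coverage ratio (TCR). Where a value is not said to be of a single nucleotide, the TCR is the chance, in percent, that a fragment stops somewhere among 3 positions, the named nucleotide and the one on each side of it. The noise is the authors' estimate, from simulated fragments, of the highest TCR of a single nucleotide that random stops give locally. A TCR of 3 nucleotides can thus exceed the noise although none of the 3 does by itself. The coverage behind each TCR is unknown.

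Each cDNA began at a random primer and was ligated at its other end to an adapter, so that the ligated end marks the stop. The adapter is shown 5′ to 3′ because every stop was read at its junction and copies of a fragment were told apart by its barcode. Capitals mark the 7 random bases of the barcode, where N is any base.
adapter O3954: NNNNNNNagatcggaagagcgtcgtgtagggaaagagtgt

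The 25S rRNA refers to RDN25-1 of the R64 genome (YNCL0012C, chromosome XII, 451786 to 455181, reverse strand), the first annotated rDNA repeat. The gene codes for rRNA and its nucleotides are numbered from the 5' end of the mature RNA. In the library with MNase-rpL5, 740 nucleotides are listed at a TCR of 0, and 972 in the library without MNase. The last 120 nucleotides, from 3277 to 3396, are at 0 in every library and in the noise, so they give no information. The median TCR of a single nucleotide was 0.0562% with MNase-rpL5 and 0.0418% without MNase, against a median noise of 0.941%. Single nucleotides above the noise numbered 188 with MNase-rpL5 and 289 without MNase. Hence most of the molecule gave no stop above the noise in either library.

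The highest stops were shared by both libraries. Of the 30 single nucleotides with the highest TCR in the MNase-rpL5 library, 16 lay within 4 nucleotides of m1A645, m1A2142, m3U2634 or m3U2843 and 3 at the 5' end of 25S rRNA. Around m1A645 the TCR was 98.3% with MNase-rpL5 and 95.9% without MNase. Around nucleotide 2 it was 93.1% and 92.7%. Stops around m3U2634 were less alike, with 89.994% against 48.7%, and the other fusions stood with MNase-rpL5 at 83.98% and 89.5%. Of the remaining 11 nucleotides, 6 belong to the sites described below and 4 of the other 5 were higher without MNase. The exception was nucleotide 619 (chromosome XII, 454563), a stop present in all 4 libraries. Its TCR was 33.3% with MNase-rpL5, 26.1% and 46.8% in the rpL27 and rpL35 fusions, and 12.6% without MNase. This ratio of 2.65 is below the factor of 5 used for calls.

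**Figure D1:**
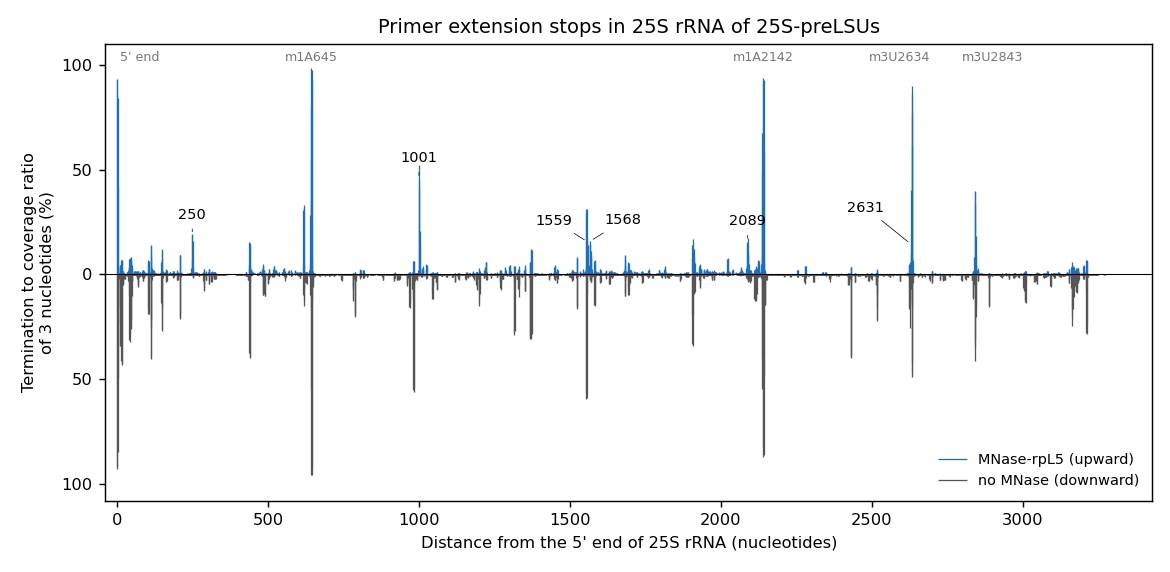
TCR of 3 nucleotides in percent along 25S rRNA of 25S-preLSUs, by distance from the 5' end, with MNase-rpL5 drawn upward and no MNase drawn downward. The 5' end and the modified nucleotides stand out in both libraries, while the site at G1001 (45.6% against 0.477%) stands out upward and the stop at 983 (6.54% against 56.3%) downward.

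A stop was called higher with MNase-rpL5 when its TCR reached 1%, exceeded the noise more than 5 times and exceeded the TCR without MNase more than 5 times. Nucleotides within 2 of the 5' end or of a modified base named above were left out, which left 3373. These criteria were met at 19 nucleotides, or 0.563%, which form 6 sites, and at a minimum of 5% the same number passed. At a minimum of 15%, 11 nucleotides passed (0.326%), in 5 sites. With the libraries exchanged, 108 nucleotides passed (3.20%), in 33 stops that were higher without MNase, and 29 nucleotides (0.860%) in 12 stops at a minimum of 15%. At a minimum of 5% there were 65 nucleotides (1.93%) in 21 stops. The direction that no nuclease would give thus held more stops than the direction of the fusion, and a count of called nucleotides by itself is no result about MNase-rpL5. In 1598 nucleotides outside 25S rRNA with a TCR and a noise above 0, the shares called by the 1% rule were 0.814% with MNase-rpL5 higher and 2.63% with no MNase higher.

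Nucleotides at the 5' end and at the modified bases, left out of the calls, were kept for the ratios that follow. At the 126 single nucleotides above the noise in both libraries, the ratio of MNase-rpL5 to no MNase had a median of 0.523. In log2 the median was -0.93, with quartiles of -1.66 and 0.20. When the TCR without MNase was multiplied by 0.523, 9 sites were higher with MNase-rpL5 and 14 stops higher without MNase, in place of 6 and 33. The central 90% of the log2 ratios ran from -3.18 to 1.21. The same median was 0.486 for the rpL27 fusion and 0.671 for the rpL35 fusion over no MNase. Set against the other fusions, MNase-rpL5 had a median ratio of 1.12 to rpL27 and of 0.900 to rpL35. Across the 390 tested nucleotides above the noise in any of the 4 libraries, the Spearman's rho of MNase-rpL5 was 0.322 to no MNase, 0.769 to the rpL27 fusion and 0.750 to the rpL35 fusion. These correlations are across nucleotides, which are not replicates, and they describe the profiles only. By this measure each fusion was less like the library without MNase than like the other fusions.

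**Figure D2:**
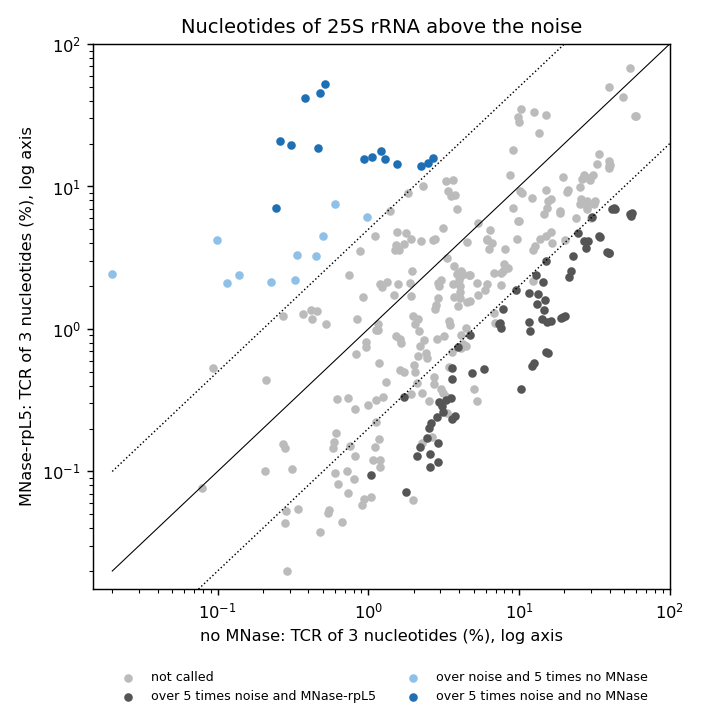
TCR of 3 nucleotides in percent with MNase-rpL5 (vertical) and without MNase (horizontal), both on log axes, for tested nucleotides with a single TCR above the noise in either library. The solid line marks equal values and the dotted lines a ratio of 5 either way. Values under 0.02 are drawn at 0.02. The 6 sites lie at the upper left, and the 33 stops higher without MNase lie below the lower dotted line.

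The site with the highest TCR was G1001 in helix 38 (chromosome XII, 454181), a long helix of domain II known as the A-site finger that reaches beside the central protuberance. With MNase-rpL5 the TCR was 45.6%. The rpL27 and rpL35 fusions had 11.4% and 6.41%, and the library without MNase had 0.477%, where the noise was 0.881%. MNase-rpL5 was 95.6 times the library without MNase, 51.7 times the noise and 4.01 times the next fusion. Of the 6 sites this was the only one at which MNase-rpL5 exceeded both other fusions by more than 2 times.

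Read nucleotide by nucleotide, the stops at this site fell on a short run. With MNase-rpL5, G1001 alone had 40.35%, nucleotide 1002 had 7.49% and nucleotide 1003 had 13.5%. The flanks were far lower, with 1.36% at 1000 and 0.976% at 1004, the latter under the noise. For the same 3 nucleotides the rpL27 fusion had 9.73%, 1.71% and 3.33%, and the rpL35 fusion had 5.26%, 1.22% and 2.03%. Their order was the same in each fusion, with G1001 highest and 1002 lowest. Without MNase, no nucleotide from 1000 to 1004 was above 0.298%. The probability of a stop anywhere from 1000 to 1004 was 53.4% with MNase-rpL5, 14.5% and 8.65% in the rpL27 and rpL35 fusions, and 0.615% without MNase.

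A second, weaker run lay further along helix 38, from 1011 to 1015. Centred on the nucleotide just before 1015 (chromosome XII, 454168), the TCR was 4.19% with MNase-rpL5, 0.591% and 0.369% in the rpL27 and rpL35 fusions, and 0.0986% without MNase. It was 4.35 times the noise of 0.962%, short of the factor of 5. MNase-rpL5 was 7.08 times the next fusion here. From 1011 to 1015 the single nucleotides had 2.02%, 0.147%, 1.17%, 1.14% and 1.94%. Over the run, a stop had a probability of 6.26% with MNase-rpL5, of 1.02% and 1.01% in the rpL27 and rpL35 fusions, and of 0.138% without MNase. A further rule asked for a TCR of at least 1%, above the noise and over 5 times each of the other 3 libraries. By it, stops passed with MNase-rpL5 at 5 of the 3373 tested nucleotides, in 2 places. These were 1012 to 1015 and nucleotide 552, which had 2.51% with MNase-rpL5 at 1.53 times the noise. Nucleotide 552 alone had 0.847%, under its noise of 1.64%, so its call rests on the 3 positions together. By the same rule the library without MNase exceeded each fusion at 64 nucleotides, in 22 places.

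Further on, another group of stops in the same helix peaked at nucleotide 1027, and here the fusions did not separate in the same way. Nucleotide 1027 alone had 3.65% with MNase-rpL5, 2.00% and 3.03% in the rpL27 and rpL35 fusions, and 1.30% without MNase. Centred on the nucleotide before it (454156), the TCR was 5.11% with MNase-rpL5, 3.47% and 6.16% in the other fusions, and 1.99% without MNase, where the noise was 1.82%. MNase-rpL5 was thus 2.57 times the library without MNase but not the highest fusion. From 1000 to 1028, any stop had a probability of 59.7% with MNase-rpL5, of 19.9% and 18.8% in the rpL27 and rpL35 fusions, and of 5.00% without MNase.

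**Figure D3:**
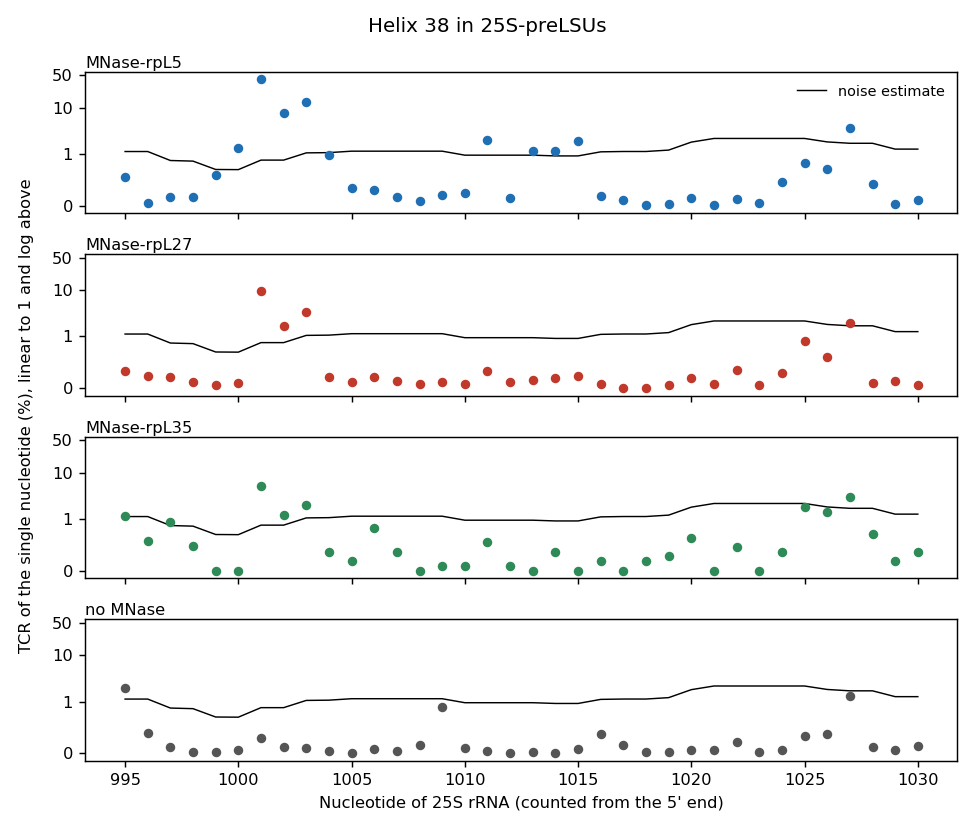
TCR of single nucleotides around G1001 in helix 38 of 25S rRNA in percent, 1 panel per library of 25S-preLSUs, on an axis that is linear to 1 and logarithmic above. The black line is the noise estimate. Points at G1001 and the 2 nucleotides after it are above the noise in all 3 fusions and highest with MNase-rpL5 (40.35% at G1001), and points at 1011 and 1013 to 1015 are above it with MNase-rpL5 alone.

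The other sites called at 15% or more were also high in the other fusions, and MNase-rpL5 was the lowest of the 3 fusions at 3 of them. U250 (454932), in an internal loop between helices 16 and 17, had 18.6% with MNase-rpL5, 78.2% and 54.7% in the rpL27 and rpL35 fusions, and 0.464% without MNase. U1568 (453614), in expansion segment ES19, had 15.9%, 73.1%, 53.6% and 2.68% in the same order. A2089 (453093), in expansion segment ES27, had 15.6%, 63.2%, 31.8% and 0.935%. At these 3 sites the rpL27 fusion was 4.06 to 4.61 times and the rpL35 fusion 2.04 to 3.38 times MNase-rpL5. At all 3, MNase-rpL5 was above the library without MNase, by 40.1, 5.92 and 16.7 times. The ratio at U1568 lies close to the factor of 5.

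At A1559 (453623), also in ES19, the 3 fusions were alike. The TCR was 15.6% with MNase-rpL5 and 15.1% and 17.5% in the rpL27 and rpL35 fusions, against 1.29% without MNase. A1559 alone had 12.7% with MNase-rpL5 and 0.324% without MNase. A stop just before it in the sequence, at nucleotide 1556, was lower in MNase-rpL5, with 26.8% against 55.2% without MNase. Nucleotide 1557 had 4.21% against 8.05%. Centred on A1558, which takes in nucleotide 1557, the TCR was 18.1% with MNase-rpL5 and 9.10% without MNase.

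**Figure D4:**
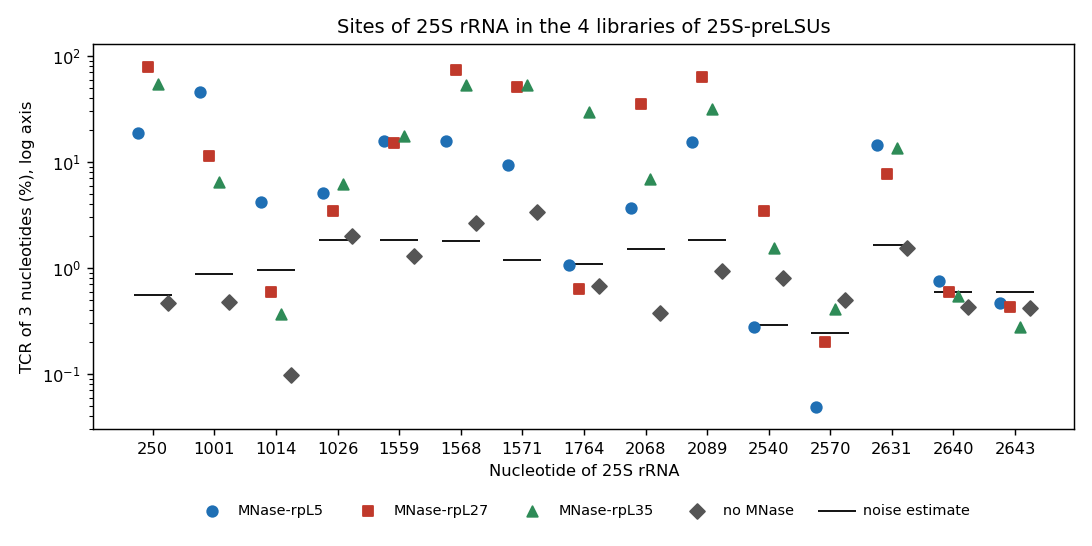
TCR of 3 nucleotides in percent, on a log axis, at 15 named nucleotides of 25S rRNA in the 4 libraries of 25S-preLSUs, with the noise estimate as a dash. MNase-rpL5 exceeds every other library more than 2 times at G1001 and in the second run of helix 38, and at U250, U1568 and A2089 it lies between the other fusions and the library without MNase.

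The last of the 6 sites, nucleotide 2631 (452551), lies 3 nucleotides from m3U2634. The TCR was 14.5% with MNase-rpL5, 7.67% and 13.6% in the rpL27 and rpL35 fusions, and 1.54% without MNase. The stop at the modified base itself was also lower without MNase, as given above. The probability of a stop from 2629 to 2633, just before the modified base in the sequence, was 41.7% with MNase-rpL5, 28.0% and 43.9% in the rpL27 and rpL35 fusions, and 7.77% without MNase. The same measure before m1A645, from 640 to 644, was 56.2%, 46.7%, 52.7% and 17.2%. Before m1A2142 it was 75.3%, 43.1%, 76.6% and 59.3%. Before m3U2634 and m1A645, stops were thus more frequent in all 3 fusions than without MNase, and before m1A2142 in 2 of them. Whether a cut adds to the value at 2631 was not tested.

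Several nucleotides at which the paper discusses cuts did not pass with MNase-rpL5. Around A1571 (453611) in ES19 the TCR was 9.35% against 3.37% without MNase, a ratio of 2.78, while the rpL27 fusion had 51.6% and the rpL35 fusion 52.9%. Around U2068 (453114) in ES27 it was 3.66% against 0.372%, which is 9.83 times, but only 2.41 times the noise, and the rpL27 fusion had 35.02%. U1764 (453418) had 1.08% with MNase-rpL5, equal to the noise at this precision, 0.669% without MNase and 29.4% in the rpL35 fusion. In helix 81 the TCR was 0.753% around A2640 (452542) and 0.469% around A2643 (452539), beside 0.426% and 0.424% without MNase. Around A2540 (452642) and U2570 (452612) in ES31, MNase-rpL5 had 0.275% and 0.0484%, under the noise and under the 0.811% and 0.494% without MNase. The paper reads cuts at these 2 nucleotides by targeted primer extension, because of a limit on the size of the cDNAs that were sequenced, so these low values do not measure whether MNase-rpL5 cut there.

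Weaker stops were sought where the TCR of 3 nucleotides exceeded the noise itself, keeping the minimum of 1% and the factor of 5 over no MNase. By this rule 77 nucleotides passed (2.28%), in 26 places, of which 20 were further to the 6 sites. In the exchanged direction 187 nucleotides passed (5.54%), in 62 places, so weaker stops were not more frequent with MNase-rpL5 than in the opposite direction. Their TCR with MNase-rpL5 ran from 1.29% to 7.52% with a median of 2.23%, and 13 of the 20 were under 2 times the noise. At 3 of them, nucleotides 528, 568 and 617, the library without MNase is listed at 0, and no ratio is given. The call at 617 lies beside the stop at 619 described above. Nucleotide 617 itself is listed at 0 with MNase-rpL5, and its window takes in 3.27% at nucleotide 618.

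Among the 20, MNase-rpL5 was the highest of the 3 fusions at 11, and it exceeded the next fusion more than 2 times at 3. These were 1011 in helix 38, as part of the run above, 1515 (453667) and 2851 (452331). Nucleotide 2851 had 2.22% with MNase-rpL5, 0.512% and 0.343% in the rpL27 and rpL35 fusions, and 0.324% without MNase, at 2.69 times the noise. Nucleotide 1515 had 1.29%, 0.597%, 0.450% and 0.0411%, barely above its noise of 1.13%. The position 2851 lies 8 nucleotides after m3U2843, at which both libraries stop.

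The highest of the 20 was nucleotide 2024 (453158), which had 7.52% with MNase-rpL5, 4.99% and 7.16% in the rpL27 and rpL35 fusions, and 0.604% without MNase. Nucleotide 1302 (453880) had 4.50%, 4.71%, 4.92% and 0.502%. At both, the highest fusion was less than 2 times the lowest. Nucleotide 1223 (453959) had 6.15%, 7.58%, 3.30% and 0.985%, at a noise of 3.41%. Nucleotide 1287 (453895) had 3.28%, 2.41%, 2.22% and 0.336%. Nucleotide 1796 (453386) had 2.11%, 0.605%, 1.18% and 0.116%, and nucleotide 2040 (453142) had 2.12%, 0.690%, 1.28% and 0.224%. At the last 2, MNase-rpL5 was the highest fusion by 1.79 and 1.66 times.

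The 33 stops that were higher without MNase had a TCR of 1.04% to 56.3% in that library, with a median of 11.6%, and a median of 1.01% with MNase-rpL5. The ratio of no MNase to MNase-rpL5 ran from 5.03 to 26.9, with a median of 10.4. At all 33 the library without MNase was the highest of the 4 libraries. It was over 5 times the rpL27 fusion at 29 of them, over 5 times the rpL35 fusion at 12, and over 5 times every fusion at 12. The median ratios to the rpL27 and rpL35 fusions were 8.87 and 3.38. The 33 were chosen for a ratio to MNase-rpL5 over 5, so the median for MNase-rpL5 cannot be ranked against the other 2. Of the fusions not used in the choice, rpL35 stood nearer by these medians to the library without MNase than rpL27. MNase-rpL5 was still above the noise at 18 of the 33.

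The highest of them was nucleotide 983 (454199), 18 nucleotides before G1001, with 56.3% without MNase, 6.54% with MNase-rpL5, and 5.50% and 26.5% in the rpL27 and rpL35 fusions. Near the 5' end, nucleotide 16 (455166) had 43.2%, 6.99%, 8.38% and 15.8%, and nucleotide 11 (455171) had 34.3%, 4.45%, 4.31% and 11.6%, in that order of libraries. Nucleotide 2432 (452750) had 39.7%, 3.41%, 2.68% and 11.7%. At nucleotides 1369 (453813) and 1317 (453865), the library without MNase had 30.6% and 28.9%, and MNase-rpL5 6.07% and 4.17%. Nucleotide 3166 (452016) had 24.4%, 4.72%, 6.41% and 13.9% in the 4 libraries, in the order used above. Nucleotide 2519 (452663) had 22.0%, 2.55%, 2.76% and 11.3%, and nucleotide 970 (454212) had 16.2%, 1.13%, 0.668% and 5.73%. At these 9 stops the rpL35 fusion was the highest of the 3 fusions.

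A further group had low values in every fusion. Nucleotide 789 (454393) had 20.2% without MNase, 1.23% with MNase-rpL5, and 0.864% and 1.82% in the rpL27 and rpL35 fusions. Nucleotide 782 (454400) had 12.3%, 0.546%, 0.430% and 0.629%, and nucleotide 2890 (452292) had 15.5%, 0.677%, 1.10% and 1.38%. The largest ratio to MNase-rpL5 was 26.9, at nucleotide 490 (454692), with 10.3% without MNase and 0.382% with MNase-rpL5. The latter is under the noise of 1.76%, so the size of this ratio is uncertain. There the rpL35 fusion had 6.63%.

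**Figure D5:**
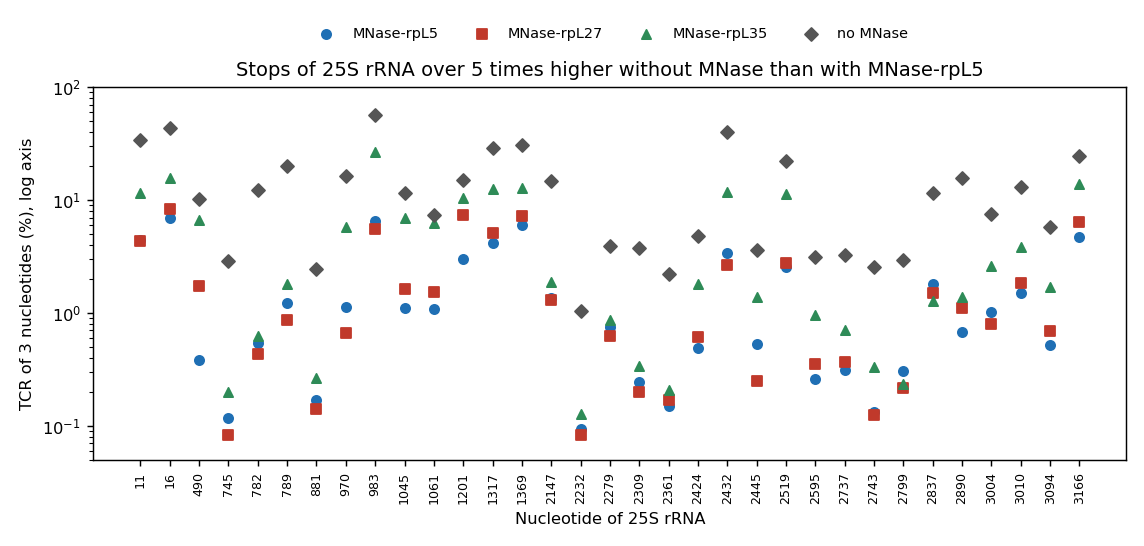
TCR of 3 nucleotides in percent, on a log axis, at the peak nucleotide of each of the 33 stops of 25S rRNA called higher without MNase, ordered from the 5' end, for the 4 libraries of 25S-preLSUs. The library without MNase is the highest at each of the 33, and MNase-rpL5 lies within a factor of 2 of the rpL27 fusion at 30.

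The molecule was divided into 17 stretches of 200 nucleotides each, the last shorter. Differences in favour of MNase-rpL5 at nucleotides above the noise summed to 267.2 percentage points over 83 nucleotides, of which 51.5% lay in the 6 sites and 23.3% in the site at G1001 alone. Differences in favour of no MNase summed to 935.7 points over 246 nucleotides, with 48.1% in the 33 stops. The sum for MNase-rpL5 was the larger one in 2 stretches. In the one from G1001 to 1200 it was 69.3 against 37.4 points, and from 2001 to 2200 it was 47.04 against 37.2 points. The latter stretch takes in nucleotides 2138 and 2139, beside m1A2142 but outside the 2 nucleotides left out. Alone they had 18.2% and 34.8% with MNase-rpL5, against 12.2% and 30.5% without MNase. The lead in this stretch depends on these stops, which both libraries share. From 2401 to 2600 no nucleotide added to the sum for MNase-rpL5, while the sum for no MNase was 78.3 points. In the first 200 nucleotides the sums were 0.784 and 193.9 points.

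In 27SB-preLSUs, purified via Noc3-TAP, MNase-rpL5 had 0.558% around G1001 against 0.213% without MNase, both under the noise of 1.11%. In the second run of helix 38, at the centre given above, it had 2.16% against 0.0527%, at a noise of 1.31%. At the peak nucleotides of the 33 stops, the library without MNase from 27SB-preLSUs exceeded MNase-rpL5 at 23 and was over 5 times it at 0, with medians of 2.98% and 2.33%, although 29 of 3373 nucleotides (0.860%), in 13 other stops, passed the exchanged rule in these particles.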

How the data were processed

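Members and lists were chosen with earlier results of these data known. Reads were aligned to yeast rDNA by the authors with Bowtie2 (version not given in the sources consulted). They then kept equal read numbers per library, limited by insert size and mapping quality, used barcodes to estimate unique fragments, and deposited the TCR of every nucleotide as a fraction between 0 and 1. Their noise estimate, also a fraction, is the highest TCR within a few nucleotides over simulated data sets of a purification. No counts or coverage were used here, so the depth is unknown and no interval or floor is given.

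From these fractions, the chance of at least 1 stop among 3 nucleotides was calculated from their single TCRs and expressed in percent. The noise was that of the centre nucleotide. Called windows within 2 nucleotides were joined, and the called nucleotide with the highest single TCR named the site. Named were all called sites, the 10 highest stops in the exchanged direction, the sites the paper gives in 25S rRNA, the 2 weaker runs of helix 38, the modified nucleotides and the 5' end. All other named nucleotides, weaker stops included, were picked with their values in view. Positions on chromosome XII were counted from the end of RDN25-1, whose length of 3396 equals the table's. The calling code was tested on simulated data. Calculations were done in Python 3.11.15 with numpy 2.4.6 and pandas 2.3.3, rank correlations with scipy 1.17.1 and figures with matplotlib 3.10.9.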

Additional observations from a re-analysis of the deposited data

Results flagged for a closer look

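At 3 of 65 nucleotides checked (the named sites, the weaker stops and the peaks of the stops higher without MNase), the difference between MNase-rpL5 and no MNase had opposite signs in the 2 precursors, with a ratio over 2 and a size above the noise in each. Over all 3373 tested nucleotides of 25S rRNA, 39 nucleotides in 17 runs met the same criteria. The differences between the precursors were not tested, since each value rests on 1 library. At A1571 the difference was 5.99 percentage points in 25S-preLSUs and -14.3 points in 27SB-preLSUs. At nucleotide 2024 it was 6.92 points in 25S-preLSUs and -25.0 points in 27SB-preLSUs, with 38.9% in the latter without MNase. At nucleotide 490 it was -9.88 points in 25S-preLSUs and 4.97 points in 27SB-preLSUs, and the lower library of each pair was under the noise. Outside the 65, nucleotide 2281 differed by 2.36 points in 25S-preLSUs and by -26.2 points in 27SB-preLSUs, and nucleotide 2348 by 0.570 and -25.9 points.

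Outside 25S rRNA, stops met the criteria for a site with MNase-rpL5 at a minimum of 15% at 3 places in the Lsg1-TAP purification. The paper describes 25S-preLSUs as holding fully trimmed 25S rRNA. Stops in spacers and 18S rRNA thus come from other RNA in the purified fraction. By the 1% rule, the shares called outside 25S rRNA were 0.814% with MNase-rpL5 higher and 2.63% with no MNase higher, as given above. In the 5' external spacer, nucleotide 695 is listed at 50% with MNase-rpL5, at 100% and 0 in the rpL27 and rpL35 fusions, and at 0 without MNase, round fractions at unknown coverage. Nucleotide 438 of 18S rRNA had 15.9% with MNase-rpL5, 17.5% and 17.1% in the rpL27 and rpL35 fusions, and 2.44% without MNase. Nucleotide 198 of ITS2 had 34.1% with MNase-rpL5, 58.1% and 6.25% in the rpL27 and rpL35 fusions, and 5.56% without MNase.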

How the results depend on the processing

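No paired analysis was possible because each condition has 1 library, and no replicate could be left out. The 6 sites higher with MNase-rpL5 became 26 with 1 times the noise, 3 with 10 times the noise and 0 when MNase-rpL5 had to exceed each of the other 3 libraries, a choice made after seeing the data. Under the remaining alternatives there were 4 to 9. The 5 sites at 15% or more became 1 with a minimum of 20%, with the maximum of the 3 values or with only the stop nucleotide, 3 with 10 times the noise and 0 against each of the other 3 libraries. G1001 was the only site left in each of the first 3 of these. The 33 stops higher without MNase became 20 with 10 times MNase-rpL5, 20 with 10 times the noise, 62 with 1 times the noise, 21 with a minimum of 5% and 15 against each fusion, again chosen after seeing the data. They became 14 when the library without MNase was scaled by 0.523, the median ratio at shared stops, which gave 9 sites higher with MNase-rpL5. With 5 nucleotides left out around modified bases, with the stop nucleotide alone or with the maximum of 3, the site beside m3U2634 was not called. At single nucleotides, A1559 was not called with 2 nucleotides on either side, where its log2 ratio was 1.08, although the site was still called 1 nucleotide further on, and A1571 was called only after scaling. No ratio changed direction at the 15 nucleotides for which windows and scaling were varied. The unknown coverage limits every value under a few percent.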
